A study of Mus musculus with 6 samples.

Results

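The Hoxb cluster is the group of 10 homeobox genes Hoxb1 to Hoxb9 and Hoxb13 on mouse chromosome 11. The members were taken by name, and all 10 of them had a row among the 27179 genes counted in each library. Hox genes encode transcription factors that give cells their position along the head-to-tail axis. They lie in 4 clusters (Hoxa, Hoxb, Hoxc and Hoxd), and the order of the genes along a cluster matches the order in which they are switched on in the embryo, in time and along the body: low-numbered genes toward the head, high-numbered genes toward the tail. Fibroblasts grown in culture often keep part of the Hox pattern of the body site they came from, and Polycomb proteins hold the silent stretches of a cluster in closed chromatin.

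RNA-seq was performed on poly-A RNA from 3 immortalized mouse embryonic fibroblast (MEF) lines of the C57BL/6 strain, with 2 libraries per line from separate RNA preparations. All 3 lines lacked the circadian clock genes per1 and per2 (per1-/-, per2-/-). The line Cry/Per_KO also lacked cry1 and cry2 (cry1-/-, cry2-/-), Per/Nr1d_KO also lacked nr1d1 and nr1d2 (nr1d1-/-, nr1d2-/-), and Cry/Per/Nr1d_KO lacked all 6 genes. PER and CRY proteins repress the clock activator CLOCK-BMAL1, and NR1D proteins repress transcription of Bmal1. The study made Cry/Per/Nr1d_KO from Cry/Per_KO by CRISPR editing of Nr1d1 and Nr1d2, and proposes that both alleles of each carry frameshift mutations. Cry/Per/Nr1d_KO was a single clone, and Per/Nr1d_KO was made separately. Each group is therefore 1 cell line, so a difference between lines cannot be told apart from an effect of the deleted genes, and the p-values measure only the spread between RNA preparations. No treatment was given and the cells were harvested at high confluence, with no ages or times in the labels.

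For 4 of the 6 libraries the genotype label and the name of the deposited table conflict: the pair labelled Cry/Per/Nr1d_KO carries the name of Cry/Per_KO, and the pair labelled Cry/Per_KO carries the name of Cry/Per/Nr1d_KO. The groups below follow the genotype labels and are called "labelled" for that reason. If the deposited names were right, the 2 pairs would exchange places, the first comparison below would change sign, and the other two would exchange. The Per/Nr1d_KO libraries carry the same name in both places. All 6 targeted genes were transcribed in every line, as a mutated gene can be. Nr1d1 had 3152 ± 8.39 normalized counts (SD, n = 2) in the pair labelled Cry/Per/Nr1d_KO, 9293 ± 62.4 in the pair labelled Cry/Per_KO and 5098 ± 369 in Per/Nr1d_KO. In the same order Cry1 had 1711 ± 17.8, 5401 ± 109 and 1564 ± 40.5. Nr1d2 had 5193, 8135 and 5637, Per1 had 3064, 5719 and 2243, Per2 had 4932, 6736 and 1046, and Cry2 had 6692, 7803 and 1138. All 6 were thus highest in the pair labelled Cry/Per_KO. Cry1 and Nr1d1 are known targets of repression by NR1D proteins, and their higher level in the pair whose label says that NR1D is kept goes against the genotype labels. The paper reports less Cry1, Nr1d1, Nr1d2, Per1 and Per2 mRNA in Cry/Per_KO than in Cry/Per/Nr1d_KO. That is the direction under the deposited names and the reverse of the direction under the genotype labels.

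Library totals ran from 53764390 to 85927236 counts. Normalized counts are counts scaled to the mean effective library size, on which 3 counts, the upper limit that a count of 0 allows, correspond to 2.37 to 3.8 depending on the library. These limits and the intervals below cover counting error only. Of 12 fibroblast markers, 11 were abundant enough to be tested, and their summed level ran from 909807 to 1813851 normalized counts across the 6 libraries. The 11 did not move together: 0 were called higher and 2 lower in the first comparison below, 5 and 5 in the second and 5 and 4 in the third. The shares of all genes tested were 7.86%, 11.3% and 15.2% higher and 8.95%, 9.35% and 13.8% lower in these comparisons. Periostin (Postn) was lower by a log2 fold change of -3.42 in the first, and in the second Col3a1 was higher (5.72) while Pdgfra (-1.61) and Prrx1 (-1.19) were lower. The part of these differences in the results for Hoxb was not tested. The surface marker Thy1 was the exception to the test, with at most 9 counts summed over the 2 libraries of any line. The epithelial, endothelial, blood, skeletal muscle and pluripotent or germ cell markers summed to at most 279 normalized counts in any library. Neural and neural crest markers summed to 1998 and 2174 in the pair labelled Cry/Per/Nr1d_KO, to 394 and 407 in the pair labelled Cry/Per_KO and to 782 and 839 in Per/Nr1d_KO, most of it from Tubb3 (1868 ± 130, 358 ± 2.16 and 669.6 ± 8.48, SD, n = 2). In the same order of lines Pax6 had 166.5, 6.78 and 4.03 and Sox2 had 51.4, 34.7 and 136.9 normalized counts, and Sox10 had at most 2 counts in any library. Pax7, on the skeletal muscle list and named after its values were seen, had 121 and 85 counts in the pair labelled Cry/Per/Nr1d_KO and none in the other 4 libraries. Tubb3, Pax6 and Pax7, like most members, were thus highest in the pair labelled Cry/Per/Nr1d_KO, and their part in the results below was not tested.

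All 10 members are transcribed from the plus strand. In GRCm38.p6 (the assembly of mm10, positions from RefSeq) they span chr11:96194316-96368254, or 173.9 kb, and run in the order Hoxb13, Hoxb9, Hoxb8, Hoxb7, Hoxb6, Hoxb5, Hoxb4, Hoxb3, Hoxb2 and Hoxb1. Hoxb13 (chr11:96194316-96196610) stands apart from the rest, 74.7 kb from Hoxb9. The gene spans are chr11:96271330-96276595 for Hoxb9, chr11:96279401-96285325 for Hoxb8, chr11:96285604-96290163 for Hoxb7, chr11:96292814-96301569 for Hoxb6 and chr11:96303512-96306121 for Hoxb5. On the side of the low numbers they are chr11:96318267-96321638 for Hoxb4, chr11:96307101-96347930 for Hoxb3, chr11:96351632-96354020 for Hoxb2 and chr11:96365746-96368254 for Hoxb1, with Hoxb4 lying inside the span of Hoxb3. RefSeq lists 9 further genes inside this span, of which 4 had a count row: the long non-coding RNA genes Gm11538 and Gm53, between Hoxb13 and Hoxb9, and the microRNA genes Mir196a-1, between Gm53 and Hoxb9, and Mir10a, between Hoxb5 and Hoxb4. The other 5, Gm30134, Gm11539, Gm51876, Hoxb5os and Hoxb3os, had no row.

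The 2 microRNAs are part of the cluster and are shown because their genes were counted beside the members. The mature sequences from RefSeq read as follows, with the seed (bases 2 to 8), the part that pairs first with a target, in capitals.
mmu-miR-196a-5p: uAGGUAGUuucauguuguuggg
mmu-miR-10a-5p: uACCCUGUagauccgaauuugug
The first lies at chr11:96265187-96265208 and the second at chr11:96317186-96317208, both on the plus strand. The seeds differ, so the 2 do not share a seed family, and Mir196a-2 outside the cluster gives the same mature miR-196a-5p. A search of the 3′ UTRs of the 10 members (GENCODE vM21, longest 3′ UTR of each) for a near-complete match to either microRNA found 1, for miR-196a-5p in Hoxb8, which is the textbook target of this microRNA. It lies at chr11:96284888-96284909 in a 3′ UTR of 845 bases and forms Watson-Crick pairs at 21 of 22 positions, shown in capitals.
Hoxb8 site: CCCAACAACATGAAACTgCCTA
The remaining position is 1 G:U wobble pair, within the stretch opposite the seed. An exact match to the miR-196a-5p seed (ACTACCT) was in the 3′ UTRs of 3 members, Hoxb7, Hoxb6 and Hoxb1, and one to the miR-10a-5p seed (ACAGGGT) in that of 1 member, Hoxb3. A match is a description of the letters only.

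Promoter sequence was at hand for 3 members and is shown for them because 2, Hoxb8 and Hoxb4, fell together between lines whereas the third, Hoxb1, had no count in any library. For each, the 250 bases before the start used in the RefSeq promoter table (GRCm38.p6, plus strand) are given with CpG dinucleotides, the sites of DNA methylation, in capitals. That start is the first base of the gene span for Hoxb4, but lies 2504 bases inside the span for Hoxb8 and 12 bases inside it for Hoxb1.
Hoxb8 chr11:96281655-96281904: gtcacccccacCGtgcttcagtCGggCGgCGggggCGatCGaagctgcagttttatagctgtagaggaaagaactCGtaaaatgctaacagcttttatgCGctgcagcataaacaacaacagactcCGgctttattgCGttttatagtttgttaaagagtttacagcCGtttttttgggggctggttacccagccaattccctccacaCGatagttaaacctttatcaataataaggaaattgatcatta
Hoxb4 chr11:96318017-96318266: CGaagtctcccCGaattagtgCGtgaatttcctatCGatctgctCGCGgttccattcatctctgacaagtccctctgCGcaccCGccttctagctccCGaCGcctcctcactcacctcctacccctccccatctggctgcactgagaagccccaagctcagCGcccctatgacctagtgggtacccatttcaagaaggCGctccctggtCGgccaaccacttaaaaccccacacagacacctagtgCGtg
Hoxb1 chr11:96365508-96365757: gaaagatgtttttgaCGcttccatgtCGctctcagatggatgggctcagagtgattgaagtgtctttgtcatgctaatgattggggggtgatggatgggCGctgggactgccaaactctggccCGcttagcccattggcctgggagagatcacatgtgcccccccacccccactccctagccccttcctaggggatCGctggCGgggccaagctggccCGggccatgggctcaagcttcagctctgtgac
The Hoxb8 window held 12 CpG, the Hoxb4 window 14 and the Hoxb1 window 7, against a median of 6 over 32851 promoter windows of the same length. The ratio of observed to expected CpG was 0.974 for Hoxb8, 0.76 for Hoxb4 and 0.32 for Hoxb1, and the quartiles of all windows were 0.167 and 0.723 around a median of 0.374. Both strands were searched for CACGTG, the E-box bound by CLOCK-BMAL1, for AGGTCA, the core motif of NR1D proteins and of retinoic acid receptors, and for TGATTNAT, a site of HOX-PBX pairs. CACGTG was in none of the 3 windows and in 6.02% of all windows. AGGTCA was in 1 of the 3, the Hoxb4 window, on the minus strand (tgacct, beginning 81 bases before the start), and in 14% of all windows. TGATTNAT was in none of the 3 and in 2.82% of all windows. In 21 promoter windows of other Hox genes the shares were higher, at 19% for CACGTG, 23.8% for AGGTCA and 9.52% for TGATTNAT.

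The levels of the members split the 3 lines into 3 states. In the pair labelled Cry/Per/Nr1d_KO, 9 of the 10 members had at least 34 counts in both libraries, and only Hoxb1 had none. In the pair labelled Cry/Per_KO, no member had more than 4 counts in either library, and 4 members had none in both. In Per/Nr1d_KO, 2 neighbouring members, Hoxb3 and Hoxb2, had at least 157 counts in both libraries, the other 8 had at most 2, and 6 of those had none. The summed normalized counts of the 10 members were 2000 and 2048 in the pair labelled Cry/Per/Nr1d_KO, 7.79 and 9.82 in the pair labelled Cry/Per_KO and 447.5 and 437.2 in Per/Nr1d_KO. In bulk RNA, fewer cells that express a gene and less RNA per cell cannot be told apart.

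**Figure D1:**
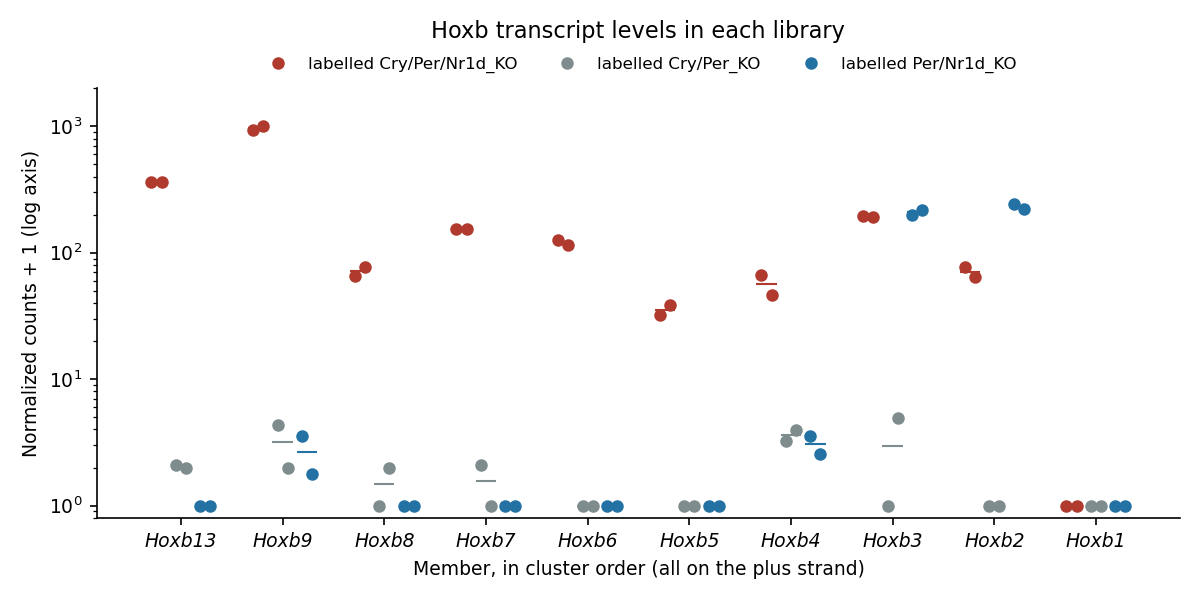
Normalized counts plus 1 of each member (log axis) in cluster order, 1 point per library and a short line at each mean, coloured by the line the library is labelled as. Hoxb13 to Hoxb4 are high only in the pair labelled Cry/Per/Nr1d_KO, Hoxb3 and Hoxb2 also in Per/Nr1d_KO, and Hoxb1 lies at 0 counts in all 6 libraries.

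The high-numbered members, Hoxb13 and Hoxb9, belong to the paralogue groups active at the posterior end of the body. Hoxb13 had 411 and 328 counts in the pair labelled Cry/Per/Nr1d_KO, 1 and 1 in the pair labelled Cry/Per_KO, and 0 and 0 in Per/Nr1d_KO. Hoxb9 had 1044 and 904, then 3 and 1, and then 2 and 1 counts in the same order of lines. Both genes were thus high in 1 pair, without overlap, and at or under the limit of a 0 count in the other 4 libraries. Normalized, Hoxb13 stood at 364.6 ± 0.455 and Hoxb9 at 965.4 ± 54.5 (SD, n = 2) in the pair labelled Cry/Per/Nr1d_KO.

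The middle members, Hoxb8, Hoxb7, Hoxb6, Hoxb5 and Hoxb4, pattern the trunk, and Hoxb4 is also known for expanding blood stem cells. Hoxb8 had 73 and 68 counts in the pair labelled Cry/Per/Nr1d_KO, 0 and 1 in the pair labelled Cry/Per_KO, and none in Per/Nr1d_KO. Hoxb7 had 171 and 139 counts, then 1 and 0, and then none. Both were high in the same pair, and so were the next 2 genes along the cluster. Hoxb6 had 142 and 102 counts and Hoxb5 had 35 and 34 in the pair labelled Cry/Per/Nr1d_KO, and neither had a count in the other 4 libraries. Hoxb4 had 74 and 41 counts there, 2 and 3 in the pair labelled Cry/Per_KO and 2 and 2 in Per/Nr1d_KO. Hoxb4 was the only member with at least 2 counts in every library, and 0.44% of its 50-base stretches also occur in exons of other genes. The same share was 0.84% for Hoxb6, which had no count in the 4 low libraries, 0.23% for Hoxb9 and 0 for the other 7 members. The part of those genes in the low counts was not tested.

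The low-numbered members, Hoxb3, Hoxb2 and Hoxb1, are active in the hindbrain of the embryo. Hoxb3 had 217 and 171 counts in the pair labelled Cry/Per/Nr1d_KO, 0 and 4 in the pair labelled Cry/Per_KO and 157 and 273 in Per/Nr1d_KO. Hoxb2 had 86 and 57 counts, then none, and then 192 and 278. Both were therefore read in 2 of the 3 lines, and Hoxb2 was higher in Per/Nr1d_KO than in the pair labelled Cry/Per/Nr1d_KO, without overlap. Hoxb1, at the end of the cluster next to Hoxb2, had no count in any of the 6 libraries, which allows at most 3 counts in each. Of the exon bases of Hoxb3, 52.93% lie on exons of genes on the opposite strand, namely Hoxb3os, as do 27.32% of those of Hoxb2. Whether the counting used strand is not given in the sources used here, and without strand reads of Hoxb3, Hoxb2 and Hoxb3os cannot be told apart. The other members share at most 3.59% of their exon bases with the opposite strand.

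Levels of different members were compared as normalized counts per kb of exon. In the pair labelled Cry/Per/Nr1d_KO, Hoxb9 was the highest with 375 ± 21.2 (SD, n = 2), followed by Hoxb13 with 165 ± 0.192, Hoxb7 with 99.2 ± 1.19 and Hoxb6 with 60.9 ± 4.61. Hoxb3 (45 ± 0.466), Hoxb8 (26.6 ± 2.87), Hoxb4 (21.7 ± 5.56), Hoxb2 (20 ± 2.65) and Hoxb5 (12.4 ± 1.7) came next. The ranges of neighbours in this order did not overlap except those of Hoxb8 with Hoxb4 and of Hoxb4 with Hoxb2. The order was thus not that of the positions, with Hoxb8 and Hoxb5 below both of their neighbours along the cluster. In Per/Nr1d_KO, Hoxb2 stood at 66.3 ± 4.87 and Hoxb3 at 48.7 ± 2.73 per kb, and their ranges did not overlap. With the length of the longest transcript in place of all exons, Hoxb4 and Hoxb2 changed ranks 7 and 8 in the pair labelled Cry/Per/Nr1d_KO. No other rank moved in that pair or in Per/Nr1d_KO. Ranks in the pair labelled Cry/Per_KO, where the members were near 0, were not compared.

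**Figure D2:**
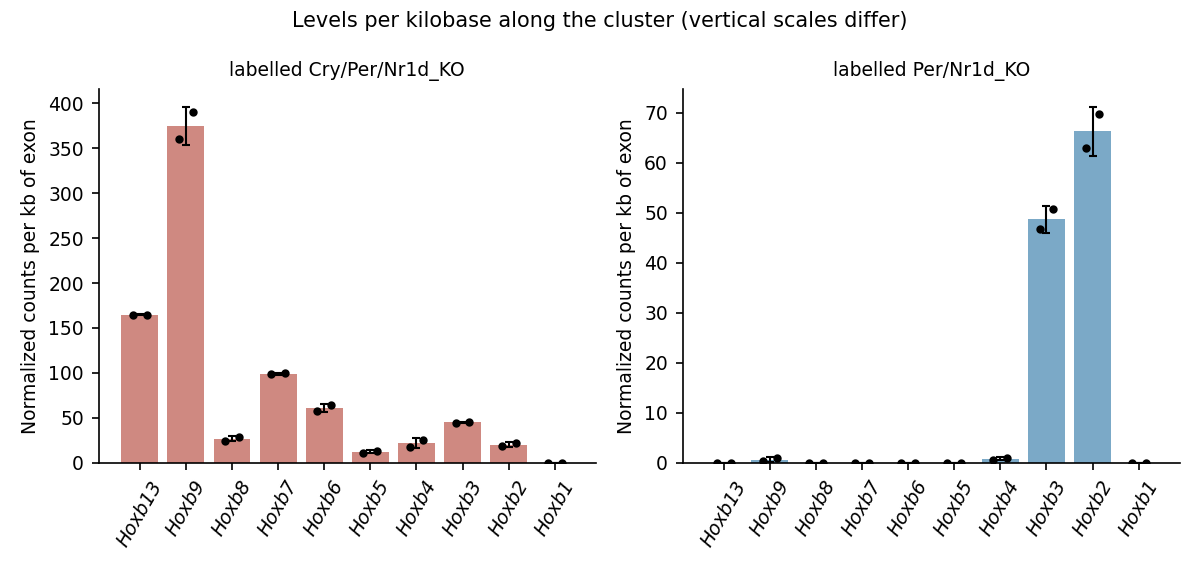
Mean normalized counts per kb of exon (bars), SD (error bars, n = 2) and the 2 libraries (points) in cluster order, on separate vertical scales. The 2 lines shown are those with members of at least 34 counts in both libraries. Hoxb9 leads with 375 in the pair labelled Cry/Per/Nr1d_KO, and Hoxb2 with 66.3 and Hoxb3 with 48.7 hold nearly all of the signal in Per/Nr1d_KO.

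As a share of all counts of the 10 members, Hoxb9 made up 46.3% (exact 95% binomial interval 44.3 to 48.4) and 49% (46.7 to 51.3) of the 2 libraries labelled Cry/Per/Nr1d_KO. Hoxb3 and Hoxb2 made up 9.63% and 3.82% of the first of these libraries, and 9.27% and 3.09% of the second. In Per/Nr1d_KO, Hoxb2 made up 54.4% (49 to 59.7) and 50.2% (45.9 to 54.4) and Hoxb3 44.5% (39.2 to 49.8) and 49.3% (45 to 53.5) of the member counts. The makeup of the cluster's RNA was therefore alike in the 2 libraries of a line and different between the 2 lines.

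The first comparison asks, by the labels, what differs between cells without CRY and PER and cells that lack NR1D as well, with the pair labelled Cry/Per_KO set against the pair labelled Cry/Per/Nr1d_KO. All 9 members with counts were lower in the pair labelled Cry/Per_KO. For Hoxb9, the group sums of 4 and 1948 counts give a level 461-fold lower (95% counting interval 180 to 1692). The sums of 2 and 739 give a ratio of 349 for Hoxb13 (96.4 to 2891), and the sums of 4 and 388 give 91.7 for Hoxb3 (35.5 to 338). Hoxb2 had no counts in the pair labelled Cry/Per_KO and was at least 22.2-fold lower there, measured against a limit of 3 counts per library. On the same scale Hoxb6 was at least 38.1-fold and Hoxb5 at least 10.9-fold lower. The ratio was 293 for Hoxb7 (52.2 to 11618), 133 for Hoxb8 (23.5 to 5304) and 21.8 for Hoxb4 (9.06 to 68.3). Those of Hoxb7 and Hoxb8 each rest on 1 count in 1 library of the pair labelled Cry/Per_KO, with 0 in the other. Without that library only a lower limit could be given.

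In the quasi-likelihood test of edgeR, a gene was tested if its normalized counts averaged 100 or more over the 6 libraries, and calls required a p under 0.05 after Benjamini-Hochberg adjustment together with a log2 fold change beyond 0.81 in either direction. Of the 10 members, 4 passed the filter on the mean (Hoxb13, Hoxb9, Hoxb3 and Hoxb2), and they did so through the lines in which they were high. All 4 were called lower in this comparison, in which 8.95% of the 11934 genes tested were called lower and 7.86% higher. The log2 fold change was -8.77 for Hoxb9 (SE 0.23, adjusted p = 1.3e-13 in edgeR), -8.29 for Hoxb13 (SE 0.3, adjusted p = 1.1e-11 in edgeR) and -6.44 for Hoxb3 (SE 0.35, adjusted p = 3.7e-10 in edgeR). For Hoxb2 the adjusted p was 2.8e-08 in edgeR. The value of Hoxb3 rested on the 4 counts of 1 library: without Cry/Per_KO replicate 2 the line is left with 0 counts and Hoxb3 was at least 57.3-fold lower, and without Cry/Per_KO replicate 1 its log2 fold change was -5.56. That of Hoxb9 was -9.77 without Cry/Per_KO replicate 1 and -8.12 without Cry/Per_KO replicate 2. When the 6 members under the filter were kept in the fit, a choice made after seeing the data, all but Hoxb1 were also called lower. In that fit 9 members were called lower, as were 8.99% of its 11940 genes, nearly all of which had passed the filter. The 5 added calls restate the counts above and are no separate evidence, since these members had been seen to be high in 1 pair alone. The adjusted p of the 5 ran from 1.1e-09 for Hoxb7 to 5.1e-06 for Hoxb5 in edgeR.

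The second comparison sets Per/Nr1d_KO, which keeps its CRY proteins, against the pair labelled Cry/Per/Nr1d_KO. It divided the cluster at one place. From Hoxb13 to Hoxb4 all 7 members were lower in Per/Nr1d_KO, whereas Hoxb3 stood at a like level and Hoxb2 was higher. Hoxb9 was 659-fold lower (225 to 3197). With no counts in Per/Nr1d_KO, Hoxb13 was at least 118-fold lower, Hoxb7 at least 49.6-fold, Hoxb6 at least 38.8-fold, Hoxb8 at least 22.7-fold and Hoxb5 at least 11.2-fold. Hoxb4 was 29.2-fold lower (11.1 to 109). Hoxb2 rose from 69.83 ± 9.23 to 231.4 ± 17 normalized counts (SD, n = 2), a ratio of 3.24 (2.68 to 3.93). Hoxb3 had 191.3 ± 1.95 and 207.2 ± 11.6 normalized counts, a ratio of 1.09 (0.95 to 1.26).

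Of the 4 members tested, 2 were called lower (Hoxb13 and Hoxb9), 1 higher (Hoxb2), and Hoxb3 did not pass the test. Over all genes tested 9.35% were called lower and 11.3% higher. The log2 fold change of Hoxb2 was 1.70 (SE 0.16, adjusted p = 1.7e-07 in edgeR) and that of Hoxb3 was 0.12 (SE 0.14, adjusted p = 0.45 in edgeR). That of Hoxb9 was -9.25 (SE 0.24, adjusted p = 1.7e-14 in edgeR), or -10.05 without Per/Nr1d_KO replicate 1 and -8.51 without Per/Nr1d_KO replicate 2. The adjusted p of Hoxb13 was 2.2e-12 in edgeR. With all members kept in the fit, Hoxb8, Hoxb7, Hoxb6, Hoxb5 and Hoxb4 were called lower too, with adjusted p from 4e-10 to 3.7e-06 in edgeR. That makes 7 members lower in a fit in which 9.39% of 11940 genes were, nearly all of them past the filter. The added calls again restate counts already seen and are no separate evidence. Hoxb2 was not among the genes tested without either Per/Nr1d_KO library, nor under DESeq2, so its call has no value there. Hoxb2 and Hoxb3, which lie side by side at the boundary, are the 2 members whose exons overlap Hoxb3os.

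The third comparison sets Per/Nr1d_KO against the pair labelled Cry/Per_KO, which are labelled as lacking NR1D and CRY respectively beside PER. The same 2 neighbours stood out. Hoxb3 was 100-fold higher in Per/Nr1d_KO (38.9 to 369) and Hoxb2 at least 73.6-fold higher. The other 8 members were at or near the limit of a 0 count in all 4 libraries, so a difference was not detectable at this depth. Hoxb9 had sums of 3 and 4 counts, a ratio of 1.43 in favour of the pair labelled Cry/Per_KO (0.242 to 9.76), and Hoxb4 had sums of 4 and 5, a ratio of 1.34 (0.289 to 6.76). Of the 4 members tested, Hoxb3 (log2 fold change 6.56, SE 0.35, adjusted p = 8e-11 in edgeR) and Hoxb2 were called higher, where 15.2% of all genes were called higher and 13.8% lower. Hoxb13 (adjusted p = 0.1 in edgeR) and Hoxb9 (log2 fold change -0.48, SE 1, adjusted p = 0.66 in edgeR) did not pass. Without Cry/Per_KO replicate 2 Hoxb3 was at least 62-fold higher, and without Cry/Per_KO replicate 1 its log2 fold change was 5.69. Hoxb2 had a mean just over the filter, and without either Per/Nr1d_KO library it was not among the genes tested, which left 1 member called. The 3 comparisons share libraries in pairs and are not independent of each other.

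Of the 4 non-coding genes with a row inside the cluster, 3 were read in the pair labelled Cry/Per/Nr1d_KO alone. Gm53 had 137 and 116 counts in the pair labelled Cry/Per/Nr1d_KO and none in the other 4 libraries, and Gm11538 had 40 and 39 and none. Mir196a-1 had 19 and 9 counts there and none elsewhere. In poly-A RNA such reads do not measure the mature microRNA, and which longer RNA they came from was not examined. Against the limit of 3 counts per library, Gm53 was at least 39.8-fold, Gm11538 at least 12.5-fold and Mir196a-1 at least 4.27-fold lower in the pair labelled Cry/Per_KO, and at least 40.6-fold, 12.8-fold and 4.35-fold lower in Per/Nr1d_KO. Mir10a had no count in any library, although Hoxb5, Hoxb4 and Hoxb3 around it were read, and none of the 4 reached the filter for the test.

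Of 37 RefSeq genes within 500 kb of the cluster, 24 had a count row and 10 were tested. The median log2 fold change of the 10 was -0.05 in the first comparison, -0.07 in the second and -0.05 in the third, against 0, 0.01 and 0.03 over all genes tested. Only B4galnt2, a glycosyltransferase gene 279.4 kb beyond Hoxb13, was called, and it was lower in all 3 comparisons, in which 8.95%, 9.35% and 13.8% of all genes tested were called lower. None of the 10 was called higher, where 7.86%, 11.3% and 15.2% of all genes were, so that with 10 genes these shares are not far from the background. It had 397 and 308 counts in the pair labelled Cry/Per/Nr1d_KO, 110 and 116 in the pair labelled Cry/Per_KO and 38 and 87 in Per/Nr1d_KO, with no overlap between lines on the normalized scale. Its log2 fold changes were -1.56, -2.52 and -0.96.

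The nearest tested gene on the side of Hoxb13 was Atp5g1, a subunit of ATP synthase, 118.6 kb away. It had 187.2 ± 2.29 normalized counts in the pair labelled Cry/Per/Nr1d_KO, 127 ± 30.1 in the pair labelled Cry/Per_KO and 168.9 ± 33.6 in Per/Nr1d_KO (SD, n = 2), and was called in no comparison. The nearest tested gene on the side of Hoxb1 was Snx11, a sorting nexin, 399.3 kb away, with 1467 ± 144, 2080 ± 150 and 1451 ± 184 normalized counts, also called in none. Closer on that side, Skap1, 96.3 kb away and under the filter, had 62 and 60 counts in the pair labelled Cry/Per/Nr1d_KO, 17 and 26 in the pair labelled Cry/Per_KO and 12 and 23 in Per/Nr1d_KO, and it was named after its values were seen. On the normalized scale it stood at 60.84 ± 8.19, 22.23 ± 4.67 and 16.68 ± 2.08 (SD, n = 2), highest in the same pair as most members. Other flanking genes under the filter, also named after their values were seen, were highest in the pair labelled Cry/Per_KO, where the members were near 0. The normalized counts of Phospho1 were 81.38, 108.8 and 25.86 in the order of lines used for Skap1, those of Abi3 were 42.96, 69.98 and 11.54, and those of Zfp652os were 8.66, 37.71 and 7.99. The median log2 fold change of the 958 tested genes of chromosome 11 was 0.037, 0.007 and -0.032 in the 3 comparisons.

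**Figure D3:**
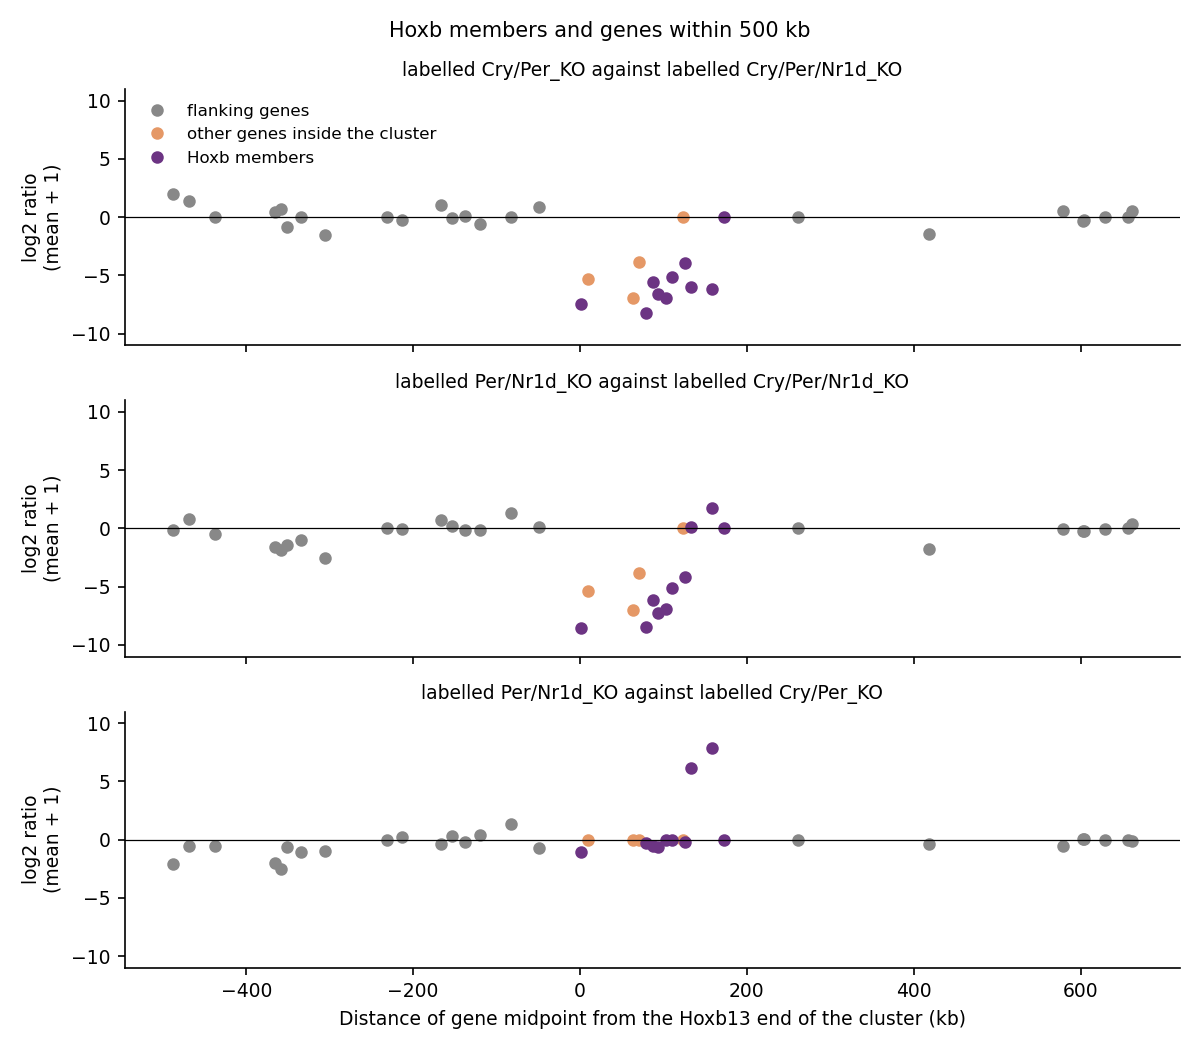
Log2 ratio of mean normalized counts plus 1 for each gene with a count row (points) against the distance of its midpoint from the Hoxb13 end of the cluster in kb, 1 panel per comparison. The members and the other genes inside the cluster fall in the first comparison except Hoxb1 and Mir10a, all but Hoxb3, Hoxb2, Hoxb1 and Mir10a fall in the second, and only Hoxb3 and Hoxb2 rise far in the third, while in the first and the second the flanking genes lie nearer to 0 than most members.

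Of the other Hox clusters, Hoxc was highest in the same pair as Hoxb, while Hoxa and Hoxd were highest in Per/Nr1d_KO. The 11 Hoxa genes summed to 1038 and 1065 normalized counts in the pair labelled Cry/Per/Nr1d_KO, 854 and 871 in the pair labelled Cry/Per_KO and 7861 and 7436 in Per/Nr1d_KO. The 9 Hoxc genes summed to 1173 and 1292, to 63.4 and 69.7, and to 2.53 and 0.789, and the 9 Hoxd genes to 1501 and 1653, to 6.68 and 3.93, and to 16401 and 15625. All 9 Hoxc genes had at least 48 counts over the pair labelled Cry/Per/Nr1d_KO and at most 6 over either of the other lines, except Hoxc13 with 119 over the pair labelled Cry/Per_KO. The Hoxd genes were near 0 in the pair labelled Cry/Per_KO, as the Hoxb members were. In the third comparison Hoxa11, Hoxa9, Hoxd11 and Hoxd13, all of them high-numbered, had the largest fitted differences of these clusters, which for the first 3 rest on 0 counts in the pair labelled Cry/Per_KO. There Hoxa11 was at least 578-fold, Hoxa9 at least 318-fold and Hoxd11 at least 278-fold higher in Per/Nr1d_KO, and Hoxd13 was 6133-fold higher (2395 to 22511). In the second comparison Hoxd13 had group sums of 26316 counts in Per/Nr1d_KO and 2343 in the pair labelled Cry/Per/Nr1d_KO and was 11.1-fold higher in the former (10.6 to 11.6). Hoxa9 was 10.4-fold (8.99 to 12.2), Hoxa11 8.38-fold (7.59 to 9.27) and Hoxd11 13.4-fold (11.2 to 16.2) higher there, in the comparison in which Hoxb9, the Hoxb paralogue of Hoxa9, was 659-fold lower. Hoxd12 (70.9-fold higher, 38.3 to 148) and several Hoxc genes, Hoxc13 among them (849-fold lower, 152 to 33582), differed by more than these 4 in that comparison, and both are named after their values were seen.

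**Figure D4:**
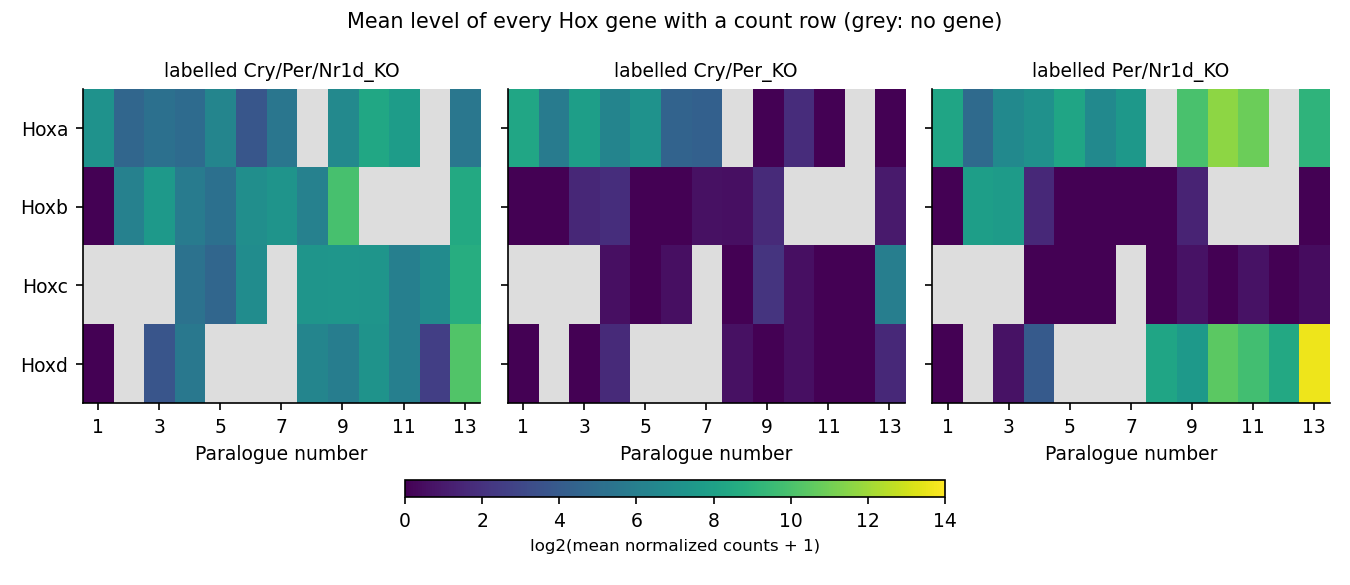
Colour gives log2 of mean normalized counts plus 1 for every Hox gene by cluster (rows) and paralogue number (columns), 1 panel per line, with grey where the mouse has no gene. The Hoxb row is filled from 2 to 13 in the pair labelled Cry/Per/Nr1d_KO, near 0 throughout in the pair labelled Cry/Per_KO, and lit at 2 and 3 alone in Per/Nr1d_KO.

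The next 3 gene lists hold factors that act with or upstream of the cluster. HOX proteins bind DNA together with PBX, MEIS and PKNOX partners, and all 9 of these genes were tested. In the first comparison 2 were higher, 0 lower and 7 not called, in the second 2 higher, 2 lower and 5 not called, and in the third 1 higher, 2 lower and 6 not called. Over all genes tested 7.86%, 11.3% and 15.2% were called higher and 8.95%, 9.35% and 13.8% lower in the 3 comparisons, and the counts of this list and the next 2 are to be read against these shares. Meis3 had 633.5 ± 5.64 normalized counts in the pair labelled Cry/Per/Nr1d_KO, 982 ± 30.4 in the pair labelled Cry/Per_KO and 75.59 ± 4.24 in Per/Nr1d_KO (SD, n = 2), with a log2 fold change of -3.71 (SE 0.11, adjusted p = 4.9e-14 in edgeR) in the third comparison. Meis2 was lower in Per/Nr1d_KO than in the pair labelled Cry/Per/Nr1d_KO, with a log2 fold change of -1.37 (SE 0.074). Pknox2 and Pbx4 were higher in the pair labelled Cry/Per_KO than in the pair labelled Cry/Per/Nr1d_KO, with log2 fold changes of 1.31 (SE 0.068) and 1.49 (SE 0.16).

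Polycomb genes repress and trithorax genes sustain Hox transcription. All 21 genes of this list were tested, with 2 higher, 0 lower and 19 not called in the first comparison and 1 higher, 2 lower and 18 not called in each of the others. With 7.86% of all genes called higher in the first comparison, 2 of 21 is near the background, and the genes named next are single cases. Kmt2a, the trithorax methyltransferase, had 13390 ± 546 normalized counts in the pair labelled Cry/Per/Nr1d_KO, 23760 ± 515 in the pair labelled Cry/Per_KO and 9770 ± 250 in Per/Nr1d_KO, and so was highest where the members were lowest. Its log2 fold change was 0.83 (SE 0.045) in the first comparison. Ezh1, a Polycomb methyltransferase, was higher by a log2 fold change of 0.87 (SE 0.058) in the same comparison. Cbx8, a reader of the Polycomb mark, was lower in Per/Nr1d_KO than in the pair labelled Cry/Per/Nr1d_KO, with a log2 fold change of -1.04 (SE 0.1).

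Retinoic acid switches on the low-numbered Hoxb genes in the embryo, and Egr2 is a hindbrain activator of Hoxb2. Of 22 genes of this list, 13 were tested, with 1 higher, 7 lower and 5 not called in the first comparison, 4, 5 and 4 in the second and 6, 2 and 5 in the third, beside 8.95% of all genes called lower and 7.86% higher in the first. Crabp2, which carries retinoic acid to its receptors, had 4151 ± 23.3 normalized counts in Per/Nr1d_KO, 99.92 ± 3.09 in the pair labelled Cry/Per/Nr1d_KO and 31.49 ± 4.26 in the pair labelled Cry/Per_KO (SD, n = 2). Its relative Crabp1 had 10.37 ± 6.85, 14170 ± 968 and 5759 ± 143 in the same order. Aldh1a3, an enzyme that makes retinoic acid, had 353.4 ± 23.9 in the pair labelled Cry/Per/Nr1d_KO, 33.91 ± 11.8 in the pair labelled Cry/Per_KO and 28.54 ± 0.926 in Per/Nr1d_KO, and was thus high in the line with 9 members. Egr2 and Cdx2 are added here after their values were seen. Egr2 had 200.6 ± 15.1, 44.78 ± 1.94 and 90.84 ± 2.38 in the same order. Cdx2, an activator of trunk Hox genes that was under the filter, had 51 and 31 counts in the pair labelled Cry/Per/Nr1d_KO, none in the pair labelled Cry/Per_KO, and 0 and 1 in Per/Nr1d_KO. Other genes of the list, also named after their values were seen, were highest in other lines. In the order of lines used for Cdx2, Rara had 2624, 4816 and 2973 normalized counts and Rdh10 had 1726, 793.9 and 3491. Cdx1, under the filter and near 0, had 0.44, 7.27 and 1.42. The part of these factors in the levels of the members was not tested.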

How the data were processed

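Poly-A RNA of 6 libraries, 2 per line, was sequenced by the authors as stranded single-end 50-base reads, aligned to mm10 with STAR and counted per gene with featureCounts. The deposited values are raw counts per gene, 1 table per library. Whether counting used strand, and how reads with several positions were treated, is not given in the sources used here. The authors' tables of their own comparisons (DESeq2 1.22.2) hold fold changes and p-values and were not used. Groups follow the genotype labels.

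Counts were normalized by TMM and tested with the quasi-likelihood F test of edgeR 4.0.16 (limma 3.58.1, R 4.3.3) over all 6 libraries. Of 20375 genes with a count, 11934 had a mean of at least 100 normalized counts and were tested. Calls needed a Benjamini-Hochberg adjusted p under 0.05 and a fold above 1.75. Depth was 53764390 to 85927236 counts. Ratios of group sums carry exact (Clopper-Pearson) 95% intervals, and a group at 0 was set to 3 counts per library. On simulated data for the first comparison, 98 of 100 genes changed 2-fold and 97 of 100 changed 4-fold were recovered with 0 false calls among 11933 genes. The simulation gave every gene the same spread and changed only genes past the filter. It set no gene near 0 counts in 1 line alone, so it does not bear on the calls of the members. Replicate libraries differed by more than sampling noise (chi-square per degree of freedom 6.69 to 13.2). From the lists of cofactors, Polycomb and trithorax genes, retinoic acid and axial genes, other Hox clusters and flanking genes, up to 4 called genes each with the largest change were named. Of the genes this rule chose, 2 are not reported here. Alternatives were DESeq2 1.42.0, other filters, scaling and thresholds, a replicate block, the compared groups alone and leaving out each library. The members and lists were chosen with earlier results of these data known. Figures were drawn with matplotlib 3.10.9.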

Additional observations from a re-analysis of the deposited data

How the results depend on the processing

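Of the alternatives for the log2 fold changes of the 4 tested members, 152 kept direction and call, 4 lost the call and 2 reversed. The number of members called was 4, 3 and 2 in the first, the second and the third comparison. With DESeq2 and an adjusted p under 1e-22 it was 1, 1 and 0, with Hoxb13 (log2 fold change -8.45 in the first comparison, -10.96 in the second) and Hoxb3 (-6.52 in the first, 6.63 in the third) no longer called. With DESeq2 at the usual threshold it was 3, 2 and 1, since Hoxb2 fell under the filter and was tested in no comparison. Without an expression filter it was 9 in the first comparison and 8 in the second, and with all members kept, an alternative added after seeing the data, it was also 9 and 8. Of the 20375 genes without a filter, 10.3% were called lower and 8.43% higher in the first comparison, and 11.5% and 11% in the second. With the first comparison's groups alone the number of members called was 2, because only 2 members passed the filter. Leaving out single libraries gave 3 to 4, 2 to 3 and 1 to 2 members. Without either Per/Nr1d_KO library Hoxb2 was not tested, which removed its calls in all 3 comparisons, and without either Cry/Per/Nr1d_KO library Hoxb13 was not tested, which removed its calls in the first and the second. Hoxb9 in the third comparison, at -0.48, ranged from -1.28 to 0.52 when single libraries were left out and turned to 0.52 without Cry/Per_KO replicate 1 and 0.27 without Per/Nr1d_KO replicate 2, with 1 to 3 counts per library behind it. The fitted value of Hoxb3 ranged from -10.58 to -5.56 in the first comparison and from 5.69 to 10.7 in the third. The extremes -10.58 and 10.7, like the -10.96 of Hoxb13, are fitted against 0 counts and are no measured folds. Over all genes, calls numbered 2006, 2468 and 3457. They were 3808, 4576 and 5590 without a filter, 9118, 9042 and 9793 without a limit on the fold, and 1097 in the first comparison with DESeq2 and an adjusted p under 1e-22. The cause of these moves was not tested beyond the changes in the genes tested. Under median-of-ratios scaling the level of Hoxb13 moved from 364.6 to 365.5.

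The replicate numbers only name the libraries (correlation of same-numbered deviations -0.19, -0.084 and -0.02). A fit with the replicate block called 4, 3 and 2 members and 2002, 2468 and 3457 genes. Depth limits the silent members: at 53764390 to 85927236 counts a library with no count allows 3.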
